A study of Mus musculus with 2 samples.

Results

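The measurements cover 10 mouse genes of the heat shock system, chosen by gene symbol with their values in this same comparison already known. They are the HSP40 genes Dnajb1, Dnajb4 and Dnaja1, the HSP110 gene Hsph1, the small HSP genes Hspb1, Hspb8 and Cryab, the cytosolic HSP90 genes Hsp90aa1 and Hsp90ab1, and Hsf1, the transcription factor of the heat shock response. All 10 were found by their Ensembl identifiers among the 55573 genes listed. Because the read counts of these 2 libraries entered the choice of genes, the counts are given here as a description, with no test.

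RNA-seq had been done on mesenteric arteries, the resistance arteries of the gut, from male wild-type C57BL/6 mice aged 10 weeks. One library came from control tissue kept in 5 mM K+ and 1 from tissue depolarized by 60 mM K+. The labels give 60 min for either solution, and each library held tissue of 2 mice. High external K+ depolarizes smooth muscle and opens its voltage-dependent Ca2+ channels, and the study asked which genes this induces. All solutions held tetrodotoxin, a blocker of nerve Na+ channels, and NaCl was lowered in the 60 mM K+ solution. The main text has both groups perfused for the same time. The supplementary methods instead describe control tissue as the distal part of arteries tied off and harvested before the remainder was perfused with high K+, and which description applies to these libraries is not clear. NaCl, and under the second description also arterial segment, time in solution and perfusion, cannot be told apart from K+ as sources of a difference. With 1 library per condition there was no replicate check.

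Heat shock proteins are molecular chaperones that hold, refold or pass on unfolded proteins. HSP40 proteins deliver clients to HSP70 and stimulate its ATPase, HSP110 proteins release ADP from HSP70, HSP90 matures kinases and receptors, and small HSPs bind unfolded proteins without ATP. In a stressed cell HSF1 forms trimers, enters the nucleus and binds heat shock elements, arrays of inverted nGAAn units in promoters. In arterial smooth muscle HSPB1 is known as a phosphoprotein linked to actin and contraction.

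Promoter sequences are shown first, because HSF1 is known to act through heat shock elements and the other 9 genes are in the list of its classical targets. The RefSeq promoter table (GRCm38.p6), which gives 250 bases upstream of each start and 50 downstream, held windows for 6 of the 10 genes: Dnajb1, Dnajb4, Dnaja1, Hsph1, Hspb1 and Hspb8. The upstream part of each matched NCBIM37 (mm9) exactly once, and mm9 coordinates are used throughout. Below are the 250 upstream bases of Hspb1 (chr5:136363539-136363788, plus strand), Dnajb1 (chr8:86131824-86132073, plus strand), Hspb8 (chr5:116872874-116873123, minus strand) and an internal start of Dnajb4 (chr3:151856810-151857059, minus strand). These windows overlap no exon of GENCODE vM1. They are written 5′ to 3′ along the gene, with the fixed letters of each pair of inverted units in capitals.

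Hspb1: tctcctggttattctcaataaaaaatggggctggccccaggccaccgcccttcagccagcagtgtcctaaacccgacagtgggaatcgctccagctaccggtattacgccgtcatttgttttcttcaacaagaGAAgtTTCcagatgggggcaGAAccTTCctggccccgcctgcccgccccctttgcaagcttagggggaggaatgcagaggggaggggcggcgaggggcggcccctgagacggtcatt
Dnajb1: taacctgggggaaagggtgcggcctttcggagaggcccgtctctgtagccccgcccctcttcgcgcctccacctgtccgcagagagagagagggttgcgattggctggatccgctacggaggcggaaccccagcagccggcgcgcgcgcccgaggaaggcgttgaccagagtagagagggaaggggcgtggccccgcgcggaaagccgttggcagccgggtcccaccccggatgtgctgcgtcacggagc
Hspb8: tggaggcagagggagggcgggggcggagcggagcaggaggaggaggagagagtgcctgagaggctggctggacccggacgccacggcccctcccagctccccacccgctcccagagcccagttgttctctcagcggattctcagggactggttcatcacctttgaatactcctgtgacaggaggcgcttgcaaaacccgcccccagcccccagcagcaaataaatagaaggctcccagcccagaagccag
Dnajb4: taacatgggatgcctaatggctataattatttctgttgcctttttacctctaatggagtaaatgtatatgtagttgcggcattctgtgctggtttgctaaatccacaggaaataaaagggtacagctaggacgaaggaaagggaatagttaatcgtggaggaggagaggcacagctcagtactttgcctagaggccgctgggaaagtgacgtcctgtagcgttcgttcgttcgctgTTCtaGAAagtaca

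The Hspb1 window, upstream of the gene with the most reads of the 10 in 60 mM K+, held 2 such pairs, GAAgtTTC at -117 to -110 and GAAccTTC at -97 to -90 from the start. The Dnajb1 window, upstream of the gene with the largest difference, held none, and none was found in the window of its other start. In Hspb8 the only pair, GAAgtTTC, lay downstream of the start at +3 to +10. The internal Dnajb4 start had TTCtaGAA at -14 to -7, and the first Dnajb4 start had none. Dnaja1 had GAAaaTTC at -124 to -117 from the first of its 3 starts.

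An array of 3 units, GAANNTTCNNGAA or TTCNNGAANNTTC, was found in 1 of the 6 genes. It was TTCtgGAAagTTC in Hsph1, at +37 to +49 from one start and +16 to +28 from the other, with a further pair TTCtcGAA upstream. Over all 27025 genes with a window, 0.662% held such an array. Pairs of units, GAANNTTC or TTCNNGAA, which also lie inside the longer arrays, were found in 5 of the 6 genes and in 17.0% of all genes. Arrays of 3 units with at most 1 mismatch among their 9 fixed letters were found in 4 of the 6 genes (Dnajb4, Dnaja1, Hspb1 and Hsph1) and in 8.15% of all genes. The 19 classical HSF1 targets with a window include these 6 genes. Their counts for arrays, pairs and arrays with 1 mismatch were 4, 12 and 11, in that order. The patterns cover both strands, since each reads as itself or as the other pattern on the opposite strand. Here and below, a gene was counted if any of its windows held the letters. Dnajb1, Dnajb4, Dnaja1 and Hsph1 had more than 1 window, and the shares are not adjusted for the number of windows per gene. A match in letters is a description and not a binding site, and a window without a match says only that these letters are absent from it.

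Since CREB, the factor that the study followed, binds TGACG and its palindrome TGACGTCA, those letters were also counted, a choice made after the data were seen. TGACG, on either strand, was found in windows of 4 of the 6 genes and of 23.0% of all genes. It lay at -11 to -7 in Dnajb1, at -141 to -137 in Hspb1, at +16 to +20 in Dnaja1 and at -44 to -40 upstream of the internal Dnajb4 start, whose first start had it at -62 to -58 and at -43 to -39. TGACGTCA was found in 0 of the 6 genes and in 2.03% of all genes.

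The deposited counts summed to 10480918 reads for 5 mM K+ and 11289598 reads for 60 mM K+. Levels are given as CPM, reads brought to a common library size with the TMM method of edgeR (a trimmed mean of log ratios), and differences as log2(fold-change) of 60 mM K+ over 5 mM K+. The bracketed ranges are exact 95% counting intervals (Clopper-Pearson, or Poisson for single counts) and cover counting error only. Scaling by total reads in place of TMM lowers every log2(fold-change) by 0.21. Over the 14829 genes whose reads in both libraries summed to 10 or more, the median was -0.0047 with TMM and -0.21 with total reads. Of these genes, 822 lay above 1, which is 5.54%, and 869 lay below -1, which is 5.86%. With total reads the split was 601 above 1 and 1285 below -1. Smooth muscle markers, 7 of 7 detected, were abundant, with 33811 CPM summed in 5 mM K+ and 36805 CPM in 60 mM K+, although Tagln had only 314 and 387 reads. Endothelial markers, 7 of 7 detected, summed to 3218 and 4354 CPM, although Kdr went the other way with 168 and 73 reads. Fibroblast markers, 6 of 6, summed to 4038 and 3714 CPM, and macrophage markers, 7 of 7, to 42.2 and 32.6 CPM. Adipocyte markers, 5 of 5, summed to 125 and 104 CPM, of which Fabp4 had 1060 of the 1405 reads in 5 mM K+. The adipocyte median log2(fold-change) was -0.90, with Plin1 lowest at 101 and 18 reads. Schwann cell and nerve markers, 5 of 5, summed to 161 and 145 CPM, and red blood cell markers, with 3 of 5 matched by name, to 39.2 and 24.2 CPM. Pancreatic acinar markers, 6 of 7 with at least 10 reads, summed to 11.6 and 42.3 CPM. Of these 6, 5 lay above a log2(fold-change) of 1, with a median of 3.32. Cpb1 alone had 98 of the 131 reads of the list in 5 mM K+. Striated muscle markers, a tissue rich in Cryab and Hspb8, summed to 49.1 and 53.4 CPM with 5 of 7 at 10 or more reads and Myh7 at 0 in both libraries. Acta1 alone had 439 of the 553 reads of the striated muscle list in 5 mM K+ and 412 of 561 in 60 mM K+. Intestinal epithelium markers had 13 and 12 reads. In such bulk tissue fewer cells of a type and less RNA per cell cannot be told apart, and the part of tissue make-up in the values below was not tested.

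All 10 genes were well counted, with 1356 to 36279 reads over both libraries. Together they took 37664 reads in 5 mM K+ and 62752 in 60 mM K+, which is 0.359% and 0.556% of the reads counted. Dnajb1, Hspb1 and Hsph1 lay above a log2(fold-change) of 1, and 0 of the 10 lay below -1. The study's own list of up-regulated genes, from the same libraries, already holds Dnajb1, Hspb1 and Hsph1. It also holds Bag3, Hspe1, Hspa1a and Hspa1b, which are described below. Among the 6549 genes with at least 500 reads, 3.24% lay above 1 and 0.122% below -1. At a lower limit of 0.5, 6 of the 10 genes lay above, adding Hsp90aa1, Dnaja1 and Cryab, compared with 12.4% of the well-counted genes. The counting interval lay above 0 for 8 genes and below 0 for Hsf1, compared with 41.4% and 21.4% of well-counted genes. The median of the 10 genes was 0.67, beside 0.08 for all well-counted genes. Just inside the limit of 1 was Hsph1 at 1.24 and just outside it was Hsp90aa1 at 0.85. Since this comparison chose the genes, nothing is read from these shares.

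**Figure D1:**
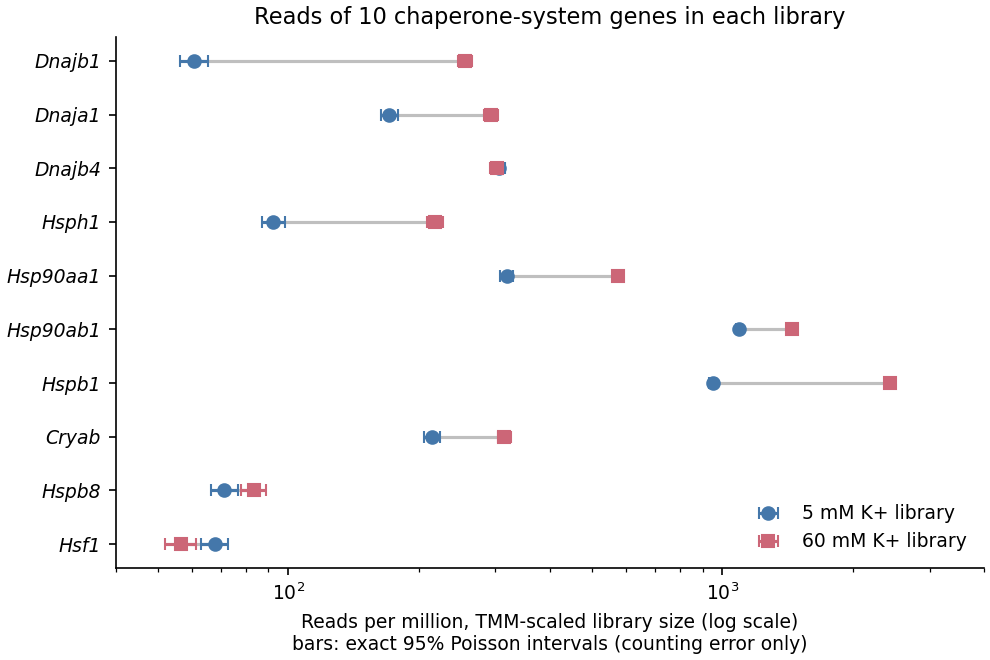
CPM of each of the 10 genes in the 5 mM K+ library (circles) and the 60 mM K+ library (squares), on a log axis with exact 95% Poisson intervals for counting error. Dnajb1 was at 60.7 and 256 CPM, while both symbols of Dnajb4 coincide near 305 CPM.

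**Figure D2:**
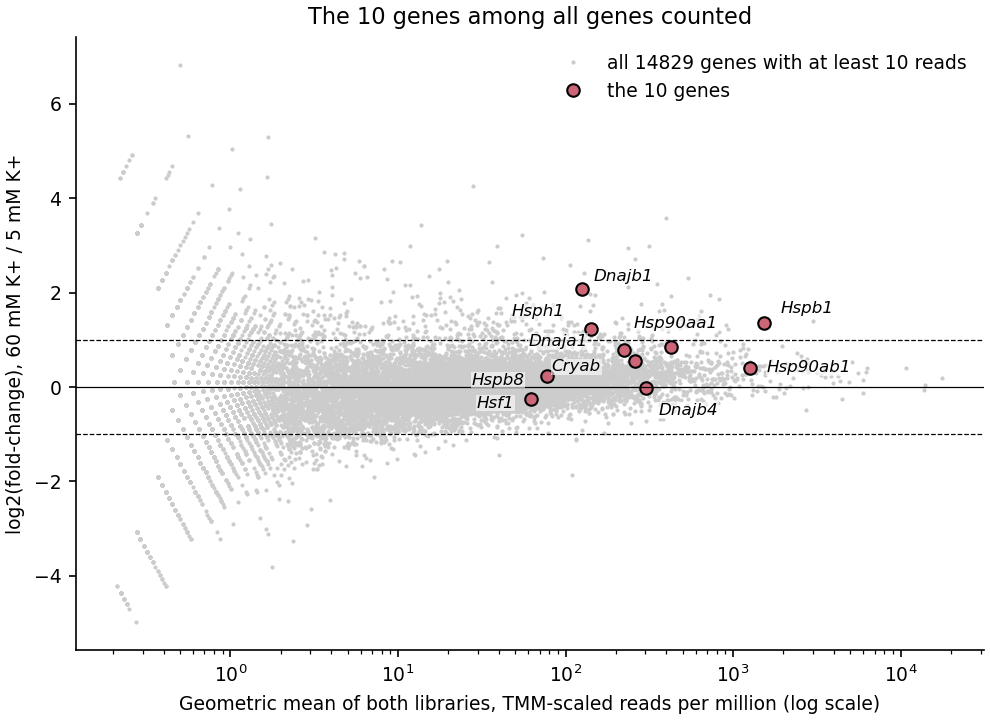
log2(fold-change) of 60 mM K+ over 5 mM K+ against the geometric mean level in CPM for all 14829 genes with at least 10 reads (grey) and the 10 chaperone-system genes (red). Dnajb1, Hspb1 and Hsph1 lie above the dashed line at 1, and low-count genes at the left spread most.

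Among the HSP40 genes, Dnajb1 encodes the main cytosolic class B co-chaperone of HSP70. Dnajb1 (ENSMUSG00000005483, chr8:86132074-86135801) had 684 reads in 5 mM K+ and 2686 in 60 mM K+, or 60.7 and 256 CPM. Its fold change was 4.21 [3.87 to 4.59] and its log2(fold-change) 2.07 [1.95 to 2.20], rank 22 among the 6549 well-counted genes. With total reads the log2(fold-change) of Dnajb1 was 1.87.

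Dnajb4 encodes another cytosolic class B partner of HSP70. Dnajb4 (ENSMUSG00000028035, chr3:151841475-151873243) had 3440 reads in 5 mM K+ and 3173 in 60 mM K+, or 305 and 302 CPM. On the log2 scale the difference was -0.02 [-0.09 to 0.05] with TMM and -0.22 with total reads. Control arteries thus held 0.199 Dnajb1 reads for each Dnajb4 read and depolarized arteries 0.847. The change of this ratio, which needs no library scaling, was 2.09 on the log2 scale [1.95 to 2.23]. The coding sequences of Dnajb1 and Dnajb4 are 64.7% identical.

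Dnaja1 encodes a farnesylated class A HSP40. Dnaja1 (ENSMUSG00000028410, chr4:40669183-40684182) had 1926 reads in 5 mM K+ and 3078 in 60 mM K+, or 171 and 293 CPM, with a log2(fold-change) of 0.78 [0.70 to 0.86]. Dnajb1 differed more than Dnaja1, by 1.30 [1.15 to 1.45] on the log2 scale. The exons of Dnaja1 share 608 bases with Smu1 on the opposite strand, which had 574 and 531 reads, and whether the counting used strand is not given in the sources used here.

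Within HSP40 classes A and B, 13 of 17 genes had at least 10 reads, with a median log2(fold-change) of 0.30. Dnajb1 was the only one of them above 1, and 0 lay below -1. Over all genes with at least 10 reads these shares were 5.54% and 5.86%, which also stand beside the lists below. The counting interval lay above 0 for 8 and below 0 for 2, beside 41.4% and 21.4% of the genes with at least 500 reads. Dnajb6, a suppressor of protein aggregation, was the highest of the other 10 genes of these classes. It had 1332 reads in 5 mM K+ and 1803 in 60 mM K+, at a log2(fold-change) of 0.54. The lowest was Dnajb14, an HSP40 of the endoplasmic reticulum membrane, with 460 and 308 reads, at a log2(fold-change) of -0.48. Of the summed FPKM of these classes, Dnajb1 made up 3.02% in 5 mM K+ and 9.50% in 60 mM K+, and Dnajb4 22.5% and 16.6%.

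In class C, whose proteins share only the J domain, 29 of 32 genes had at least 10 reads, with a median of -0.09. None lay above 1, and Dnajc28 alone lay below -1, with 27 and 12 reads, at a log2(fold-change) of -1.07. Among those with at least 100 reads, Hscb, a factor of iron-sulfur cluster assembly, was highest at 0.44. Dnajc8, a splicing-associated J protein, had the highest control FPKM of the class, with 1265 and 1473 reads and a value of 0.32.

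Hsph1 encodes HSP105, which recharges HSP70 with ATP and also holds unfolded proteins. Hsph1 (ENSMUSG00000029657, chr5:150416862-150438951) had 1041 reads in 5 mM K+ and 2285 in 60 mM K+, or 92.4 and 218 CPM. Its log2(fold-change) was 1.24 [1.13 to 1.34] with TMM and 1.03 with total reads, close to the limit of 1. Its relatives differed less, with values from 0.06 for Hspa4l to 0.11 for Hspa4, which had 1768 and 1783 reads, and with total reads these values were -0.15 and -0.10. The ratio of Hsph1 to Hspa4 reads went from 0.589 to 1.28, a change of 1.12 [0.98 to 1.27] on the log2 scale. Of the summed FPKM of the 4 HSP110 genes, Hsph1 made up 34.4% in 5 mM K+ and 53.6% in 60 mM K+.

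Bag3, another exchange factor of HSP70, which works with HSPB8 in the removal of damaged filament proteins in muscle, had 2025 and 4313 reads, at a log2(fold-change) of 1.19. It was the only 1 of the 8 HSP70 exchange factors and co-factors above 1, although with total reads it was at 0.98. Their median was 0.10 with TMM and -0.10 with total reads. Bag1, the exchange factor with the highest control FPKM, had 1120 and 1257 reads, at 0.27 on the log2 scale. St13, which stabilizes ADP-bound HSP70, had 1296 and 940 reads, at a log2(fold-change) of -0.36.

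Among the small HSPs, Hspb1 encodes HSP27 (HSP25 in mice), a chaperone of actin filaments. Hspb1 (ENSMUSG00000004951, chr5:136363789-136365433) had 10710 reads in 5 mM K+ and 25569 in 60 mM K+, or 951 and 2435 CPM. On the log2 scale the difference was 1.36 [1.32 to 1.39] with TMM and 1.15 with total reads. In number of reads this was the largest difference of the 10 genes. A near copy of its transcript, 99.5% identical and annotated as a pseudogene, had only 1 and 4 reads.

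Cryab encodes αB-crystallin, which binds desmin and is abundant in muscle. Cryab (ENSMUSG00000032060, chr9:50560863-50564738) had 2415 reads in 5 mM K+ and 3303 in 60 mM K+, or 214 and 315 CPM. Its log2(fold-change) was 0.55 [0.48 to 0.63] with TMM and 0.34 with total reads. Hspb2, another small HSP of muscle, starts head to head with Cryab, with 403 bases between them, and had 34 and 38 reads. The ratio of Cryab to Hspb2 reads changed by 0.29 on the log2 scale [-0.42 to 1.00], an interval too wide at this depth to show or bound a difference of small size.

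Hspb8, the partner of BAG3, had the fewest reads of the 3 small HSPs. Hspb8 (ENSMUSG00000041548, chr5:116858500-116872873) had 803 reads in 5 mM K+ and 875 in 60 mM K+, or 71.3 and 83.3 CPM. On the log2 scale the difference was 0.23 [0.09 to 0.37] with TMM and 0.02 with total reads. Its size thus rests on the scaling, and with total reads it was close to 0. Hspb1 differed more than either, by 0.80 [0.72 to 0.89] beyond Cryab and by 1.13 [0.99 to 1.28] beyond Hspb8 on the log2 scale.

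Of the 10 small HSP genes, 6 had at least 10 reads, with a median of 0.29, and Hspb1 was the only one above 1. Hspb7, a cardiovascular small HSP, was lowest, with 7662 reads in 5 mM K+ and 6761 in 60 mM K+ and a log2(fold-change) of -0.08. Hspb6, a small HSP phosphorylated during smooth muscle relaxation, had 1300 and 1505 reads, at a log2(fold-change) of 0.31. Hspb1 made up 61.2% of the summed FPKM of small HSPs in 5 mM K+ and 76.9% in 60 mM K+. The share of Hspb7 was 14.5% and 6.74%, and that of Cryab 15.2% and 10.95%.

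Hsp90aa1 and Hsp90ab1 encode the cytosolic HSP90 proteins, of which the α form is known as stress-inducible and the β form as constitutive. Hsp90aa1 (ENSMUSG00000021270, chr12:111928815-111940938) had 3587 reads in 5 mM K+ and 6034 in 60 mM K+, or 318 and 575 CPM. Its log2(fold-change) was 0.85 [0.79 to 0.91] with TMM and 0.64 with total reads. Hsp90ab1 (ENSMUSG00000023944, chr17:45704724-45710220) had 12295 reads in 5 mM K+ and 15156 in 60 mM K+, or 1091 and 1443 CPM. On the log2 scale the difference was 0.40 [0.37 to 0.44] with TMM and 0.19 with total reads.

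Both HSP90 genes were thus higher in 60 mM K+ under either scaling, Hsp90aa1 by more. The ratio of Hsp90aa1 to Hsp90ab1 reads went from 0.292 to 0.398, a change of 0.45 [0.38 to 0.52] on the log2 scale. Their coding sequences are 76.3% identical. Of Hsp90aa1, 2 pseudogenes 99.5% identical at most had 7 reads in 5 mM K+ and 28 in 60 mM K+, and how reads were divided among these copies is uncertain. Hsp90b1, the form of the endoplasmic reticulum, had 1867 and 2510 reads, at a log2(fold-change) of 0.53, and Trap1, the mitochondrial form, was at 0.15.

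Of 19 HSP90 co-chaperones with at least 10 reads, 0 lay past 1 or -1, with a median of 0.17 with TMM and -0.04 with total reads. Nudc, a dynein regulator that works with HSP90, was highest, with 1028 and 1272 reads, at a log2(fold-change) of 0.41. Ahsa2 was lowest, with 146 and 94 reads, at a log2(fold-change) of -0.53. Fkbp8, an immunophilin anchored at mitochondria, had the highest control FPKM of the list and a log2(fold-change) of 0.27.

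**Figure D3:**
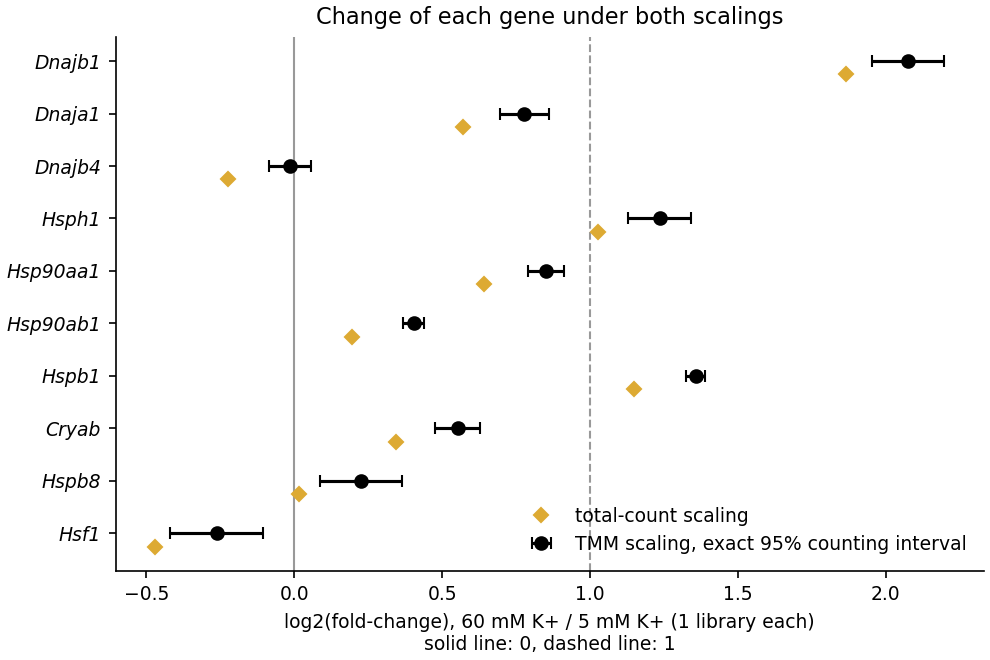
log2(fold-change) of the 10 genes with TMM scaling (black circles, bars are exact 95% counting intervals) and with total-count scaling (diamonds). Total-count scaling moves every gene left by 0.21, which leaves Hsph1 at 1.03 and Hspb8 at 0.02.

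Hsf1 itself was not higher in 60 mM K+. Hsf1 (ENSMUSG00000022556, chr15:76307865-76331402) had 763 reads in 5 mM K+ and 593 in 60 mM K+, or 67.7 and 56.5 CPM. Its log2(fold-change) was -0.26 [-0.42 to -0.11] with TMM and -0.47 with total reads, the lowest of the 10 genes. Transcript counts carry no measure of HSF1 protein, its trimers or its binding. Hsf2, a related factor, had 168 and 139 reads, at a log2(fold-change) of -0.17. Hsbp1, a small protein that binds HSF1 trimers, had 1184 and 1287 reads, at a log2(fold-change) of 0.22. Of the 7 genes in the list of heat shock factors, 5 had at least 10 reads, none of them past 1 or -1.

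The list of 24 classical HSF1 targets holds 9 of the 10 genes and all 24 had at least 10 reads. Of these, 8 lay above 1 and 0 below -1, with a median of 0.50. Of the 15 genes that are not among the 10, 5 lay above 1, and their median was 0.41. Both counts include Bag3, which lay below 1 with total reads. Over all genes with at least 10 reads, 5.54% lay above 1. The list was chosen with earlier results of these data known, so nothing is read from its counts. Hspa1b and Hspa1a encode the inducible HSP70. Hspa1b had 1303 and 14454 reads, at a log2(fold-change) of 3.57, and Hspa1a had 1269 and 9349 reads and 2.98. Those genes are near-identical, so the division of reads between them is uncertain.

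Hspe1, the co-chaperonin of mitochondrial HSP60, had 452 and 1158 reads, at a log2(fold-change) of 1.46. Its partner Hspd1, transcribed from the opposite side of the same promoter, had 1222 and 1514 reads, at a log2(fold-change) of 0.41. The ratio of Hspe1 to Hspd1 reads changed by 1.05 [0.85 to 1.24] on the log2 scale. Chordc1, an HSP90 co-chaperone, was the lowest target at -0.40, with 575 and 407 reads.

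The CCT chaperonin, which folds actin and tubulin, was looked at as a further chaperone group. Pairs of heat shock units were found in 3 of its 8 genes with a promoter window, compared with 17.0% of all genes. Of its 9 genes, 8 had at least 10 reads and 0 lay past 1 or -1. The median was 0.22 with TMM and 0.01 with total reads, and values ranged from 0.00 for Cct8 to 0.39 for Cct7. Cct2, with the highest control FPKM of the group, had 1529 and 1866 reads.

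**Figure D4:**
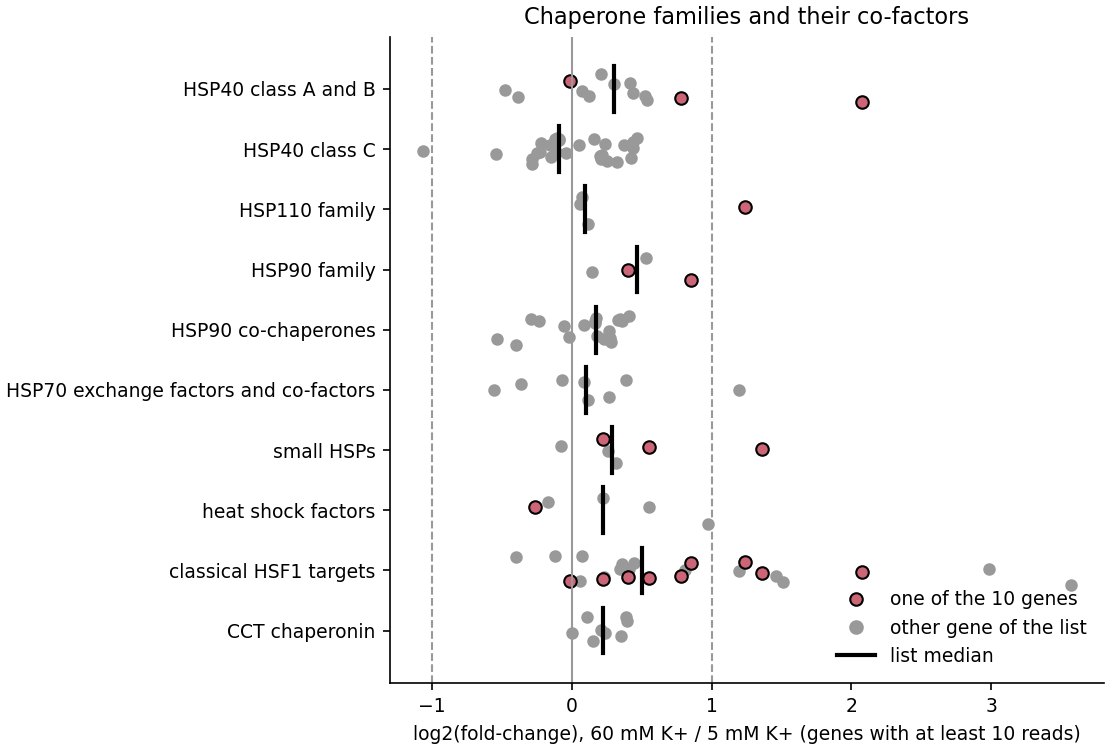
log2(fold-change) of every gene with at least 10 reads in 10 lists of chaperones and co-factors, with the median of each list (black bar) and the 10 genes described here in red. In the HSP40 class A and B, HSP110 and small HSP lists 1 gene each, Dnajb1, Hsph1 and Hspb1, lies right of the dashed line at 1.

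Levels between genes can be compared only per length. In the deposited FPKM of the control library the order was Hsp90ab1 at 1332, Hspb1 at 1114, Hsp90aa1 at 289, Cryab at 277, Dnajb4 at 166, Dnaja1 at 102, Hspb8 at 59.7, Hsph1 at 51.0, Hsf1 at 45.0 and Dnajb1 at 22.3. With 1 library, no spread between samples is known for neighbors in this order. In the depolarized library Hspb1 was first at 2470 FPKM, Hsp90ab1 second at 1524 FPKM, and Hsf1 last at 32.5 FPKM, while Dnajb1 was at 81.3 FPKM. Dnajb1 thus went from the lowest level of the 10 genes to a level above Hspb8, which was at 60.4 FPKM, and Hsf1.

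That order also rests on the gene length behind FPKM. The length that the authors used, recovered from counts and FPKM, was 881 bases for Hsp90ab1, which is 35.0% of its longest coding transcript in GENCODE vM1. It was 36.1% for Hsp90aa1, 32.2% for Dnaja1, 98.6% for Hspb1 and 129% for Dnajb1. The median over 6445 well-counted genes was 56.6%. With the longest coding transcript as length, a setting chosen after the data were seen, Hspb1 was first in control arteries at 1099 and Hsp90ab1 second at 466, on the scale of FPKM. Hsph1 was then last at 26.1 and Dnajb1 next to last at 28.8. Differences between the libraries are free of gene length. The shares within families do depend on it: Dnajb1 then made up 6.27% of HSP40 classes A and B in 5 mM K+ and 19.3% in 60 mM K+, whereas Hsp90aa1 made up 18.3% and 23.4% of cytosolic HSP90, close to the 17.8% and 22.8% from FPKM.

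**Figure D5:**
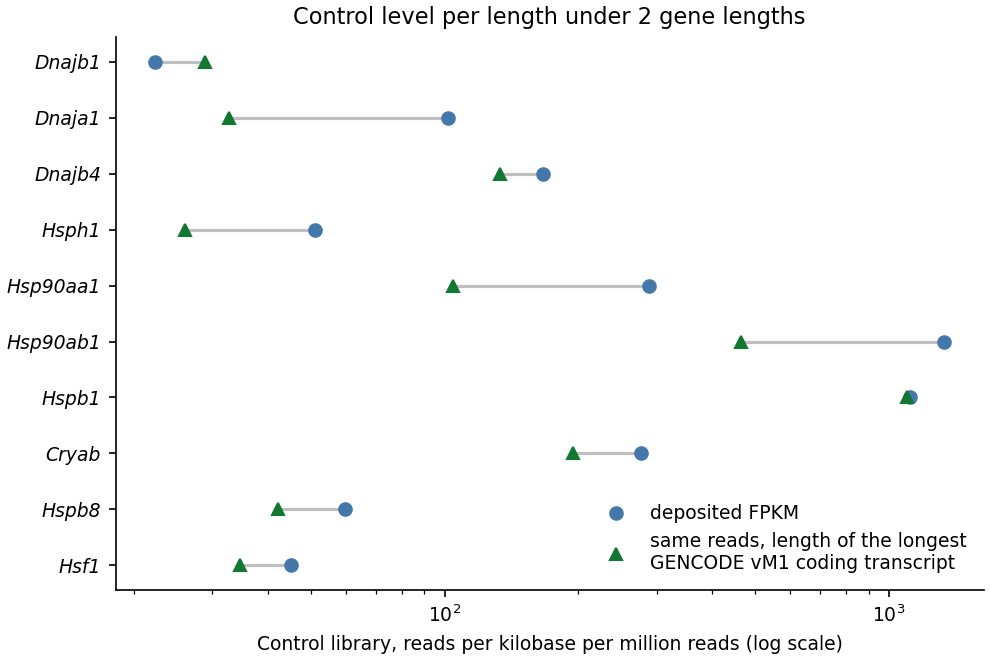
Level per length of the 10 genes in the 5 mM K+ library, from the deposited FPKM (circles) and from the same reads with the longest GENCODE vM1 coding transcript as length (triangles), on the scale of FPKM and a log axis. Hsp90ab1 lies at 1332 by the first and 466 by the second, while Hspb1 hardly moves.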

How the data were processed

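The authors prepared the libraries with a NEBNext Ultra kit and aligned the reads to mm9 with TopHat2. The submitters' processing notes name TopHat2 2.0.12, HTSeq 0.6.1 and edgeR 3.0.8. The annotation release is not given in the sources used here. The authors deposited whole read counts per gene, without normalization. They also deposited FPKM, a level scaled by gene length and library size, made from the same counts: dividing counts by FPKM gave whole-number lengths for 100% of 21374 genes (within 0.01), and FPKM was scaled by total reads.

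The 10 genes and all lists were chosen with earlier results of these data known. Besides the 10 genes, the text names list genes past a log2(fold-change) of 1 or -1, the highest in control FPKM, the highest and lowest in log2(fold-change) among those with at least 100 reads, and cell type markers, of which some are not reported here. Dnajb6, Hspb2, Hspb6, Hspd1, Hsp90b1, Hsf2 and Smu1 fall outside that rule and were chosen after their values were seen. One library per condition allows no edgeR quasi-likelihood fit, so no p-value is given. TMM factors were 1.07 (5 mM K+) and 0.930 (60 mM K+), from edgeR 4.0.16 in R 4.3.3, and a count of 0 was set to 0.5. Other settings tried were scaling by total counts, by the upper quartile or by DESeq2 1.42.0 size factors, FPKM with pseudocounts of 0.1 and 1, other count minimums and other motifs. Near copies were searched with minimap2 2.31 at 90% identity over 50% of a transcript. Identity between genes was computed on GENCODE vM1 coding sequences, in place of a planned comparison of proteins. The names table matched 32601 of 55573 listed genes. Figures were drawn with matplotlib 3.10.9.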

Additional observations from a re-analysis of the deposited data

How the results depend on the processing

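No paired analysis was possible because there was only 1 library of each kind, and for the same reason no library could be left out. The 10 genes had at least 1356 reads each, and their intervals cover counting error, while the spread between arteries was not measured. The genes above 1 were 822 with TMM, 497 and 240 from FPKM with pseudocounts of 0.1 and 1, 3081 without a count minimum and 212 with at least 500 reads. Those below -1 were 869, and 193 from FPKM with a pseudocount of 1, 2491 without a minimum and 8 with at least 500 reads. Of the 10 genes 3 lay above 1 under all scalings and with FPKM. With TMM 6 lay above a limit of 0.5, among them Cryab, which was at 0.34 with total-count scaling. Of the 6 genes with a promoter window, 1 held an array of 3 units, 5 a pair and 4 an array with 1 mismatch allowed. Over all genes with a window, these shares were 0.662%, 17.0% and 8.15%.

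The log2(fold-change) moved past its counting interval for 10 of the 10 genes with total-count scaling and both FPKM settings, for 2 with upper-quartile scaling and for 0 with median-of-ratios scaling. Under total-count scaling and FPKM, the medians of HSP70 exchange factors and of heat shock factors stayed within the median ends of their genes' counting intervals. The other medians moved past theirs. They are given here for total-count scaling and for FPKM with pseudocounts of 0.1 and 1, in that order. They were 0.4568, 0.4566 and 0.454 for the 10 genes, 0.0913, 0.0906 and 0.0854 for HSP40 classes A and B, and -0.2996, -0.2986 and -0.2901 for class C. For HSP110 they were -0.1151, -0.1148 and -0.1118, and for HSP90 co-chaperones -0.0369, -0.0369 and -0.0365, where the TMM medians of 0.0935 and 0.1717 were positive. They were 0.2572, 0.257 and 0.2558 for the HSP90 family, 0.0786, 0.0781 and 0.0737 for small HSPs, 0.2902, 0.2902 and 0.2896 for classical HSF1 targets, and 0.0137, 0.0137 and 0.0136 for the CCT chaperonin.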

Other observations

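Arrays of 3 heat shock units were also looked up over all well-counted genes with a promoter window. Of 37 genes with such an array, Hspe1 and Hsph1 lay above a log2(fold-change) of 1, which is 5.41%, with a median of 0.15. Of the 4753 genes without one, 3.22% lay above 1, with a median of 0.08. For pairs of units the shares were 4.43% of 654 genes with a pair and 3.05% of those without. With 1 mismatch allowed in 3 units, they were 5.61% of 321 genes and 3.07%. Hsph1 is among the genes described here, which were chosen with their values in this comparison known. Hspe1 is in the list of HSF1 targets, chosen with earlier results known. Hspb1 and Hsph1, both above 1, also held a pair and an array with 1 mismatch. The chosen genes were not left out of any of these shares. The shares were not tested, and nothing is read from them.

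Of the 95 genes in the chaperone and co-factor lists with a window, 5 held an array of 3 units. Hsph1, Hspe1, Hspd1 and Dnajb6 were higher in 60 mM K+ and Chordc1 was lower. A link between array and difference was not tested. Chordc1 held 3 overlapping arrays between -4 and +19 from its start, and its log2(fold-change) was -0.40. Hspd1 and Hspe1 share 1 stretch with arrays, at -144 to -127 from the start of Hspd1 and -89 to -72 from that of Hspe1, and their log2(fold-change) values were 0.41 and 1.46. Dnajb6 held an array at -46 to -34 from one start, and its log2(fold-change) was 0.54.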
